A study of Mus musculus with 4 samples.

Results

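The comparison of Twist1+/- with wild-type parietal bone was examined gene by gene as the ratio of the 2 parietal libraries, library labelled Twist1+/- over wild-type. A gene was kept when it was above 0 in both parietal libraries and reached 5 FPKM, a read density scaled by transcript length and library total, in the higher of them, and short RNA genes (names starting with Mir, Snora, Snord or Scarna) were left out. This kept 9876 of the 23946 genes measured. The study sequenced poly(A) RNA of 2 bones of the skull vault, frontal and parietal, in C57BL/6J mice at postnatal day 21, and the data described are those of 4 libraries, with a single library per genotype and bone. Parietal bone carrying both Twist1 alleles (wild-type) was set against parietal bone carrying 1 functional allele (Twist1+/-), and the frontal bones of the same genotypes are given beside as values. RNA came from 12 mice per strain, and each value is a single FPKM per condition, so that no difference has a replicate check, no p-value is given, and the depth of each library is unknown. As the study describes the sequenced parietal bone, it held the bone plate together with pericranium, the membrane on its outer face, and dura mater, the membrane on its inner face.

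Twist1 is a basic helix-loop-helix transcription factor that holds back osteoblast differentiation, and loss of 1 allele causes early fusion of cranial sutures in mice and in people. The parietal bone is a flat bone of mesodermal origin that forms directly from osteoblasts without a cartilage model. At this age it is a living mixture of osteoblasts, embedded osteocytes, bone-resorbing osteoclasts, vessels and blood-forming marrow, and a bulk library adds up the RNA of all of them. A difference in cell number and a difference in RNA per cell cannot be told apart in such a library.

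The targeted gene did not separate the parietal libraries. Twist1 (chromosome 12 of mm9, from 34642536 to 34644682) had 52.5 FPKM in the wild-type library and 50.7 FPKM in the parietal library with the Twist1+/- label, which is a log2 ratio of -0.05. It was at 59.0 FPKM in wild-type and 30.4 FPKM in Twist1+/- frontal bone. The second parietal library is therefore called the labelled library below, and every direction rests on its label. All ratios are labelled over wild-type, so that a positive log2 ratio means a higher level in the labelled library.

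Of the 9876 genes kept, 249 (2.52%) were more than 3-fold higher and 172 (1.74%) more than 3-fold lower in the labelled library. At 2-fold, 719 genes (7.28%) were higher and 747 genes (7.56%) lower. Each count past 2-fold in a list below is to be read beside these shares. The median log2 ratio of all kept genes was -0.09, with quartiles of -0.55 and 0.41. Both libraries reached 5 FPKM for 8354 of the genes, whereas 749 passed through the labelled library alone and 773 through the wild-type library alone. Among the last 2 sets a large ratio is partly a product of the floor. Dock10 (5.00019 and 3.26286 FPKM) and Fam183b (0.236144 and 5.00129 FPKM) lay just inside the floor, and Meox2 (4.56542 and 4.99951 FPKM) and Tmem140 (4.99745 and 4.24657 FPKM) just outside it. A further 6 genes reached 5 FPKM in 1 parietal library while the other lists them at 0, 3 in each direction, and give no ratio. The collagen genes Col1a1 (5595 FPKM in wild-type parietal bone) and Col1a2 (6326 FPKM) are among them, and both are listed at 0 in the other 3 libraries. For the main collagen of bone such a 0 may be a failed estimate and is not read as absence.

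**Figure D1:**
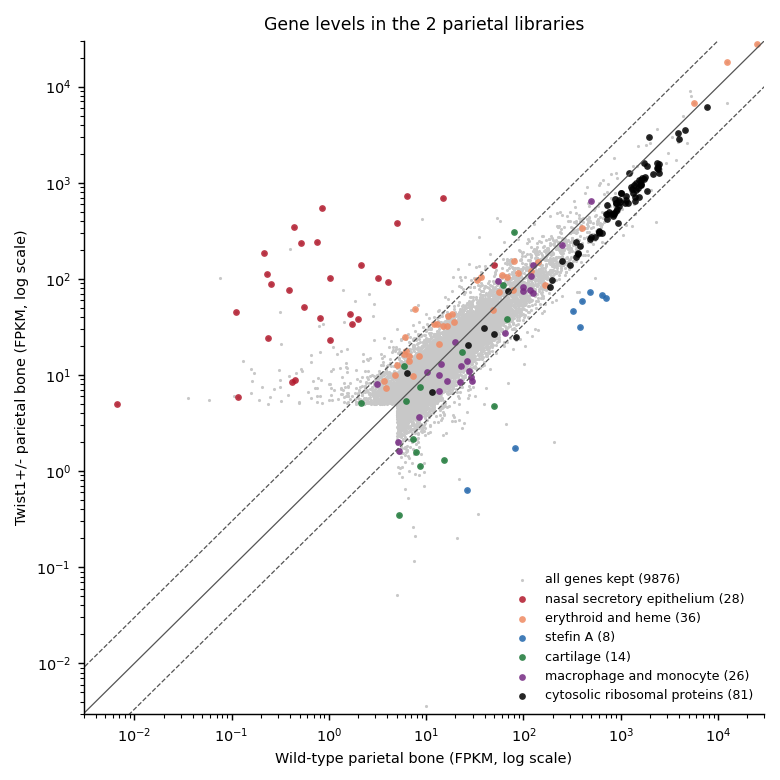
Each point is 1 of the 9876 genes kept, with wild-type parietal FPKM on the x axis and FPKM of the parietal library with the Twist1+/- label on the y axis, both log scales; the solid line marks equal levels and the dashed lines 3-fold differences. Nasal secretory genes lie far above the upper dashed line, all 8 stefin A genes lie below the lower one, and ribosomal protein genes lie mostly a little below equality.

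The ratio moved with base composition. Across 9218 kept genes with a GC value, Spearman's rho between the log2 ratio and the GC content of the longest coding transcript was 0.586, a description across genes that share both libraries. From the lowest to the highest of 20 GC groups the median went from -0.63 to 0.63. The frontal comparison of the same genotypes had a rho of 0.147. The median GC content was 55.9% for the genes past 3-fold higher, 45.1% for those past 3-fold lower and 50.7% for all kept genes. For this reason many list medians are also given after subtracting the median of the GC group of each gene. A list median given without a second value is not adjusted. The part of base composition in any single ratio was not tested. Of the 4 libraries, wild-type parietal bone had the lowest value in 242 of the 249 higher genes and the highest in 163 of the 172 lower genes, and the labelled library had the highest value in 95 and the lowest in 82 of them. These genes were chosen by the values of both libraries, so that the ranks are a description only. Over all kept genes, wild-type parietal bone had the lowest value of the 4 libraries in 29.8% and the highest in 42.4%.

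**Figure D2:**
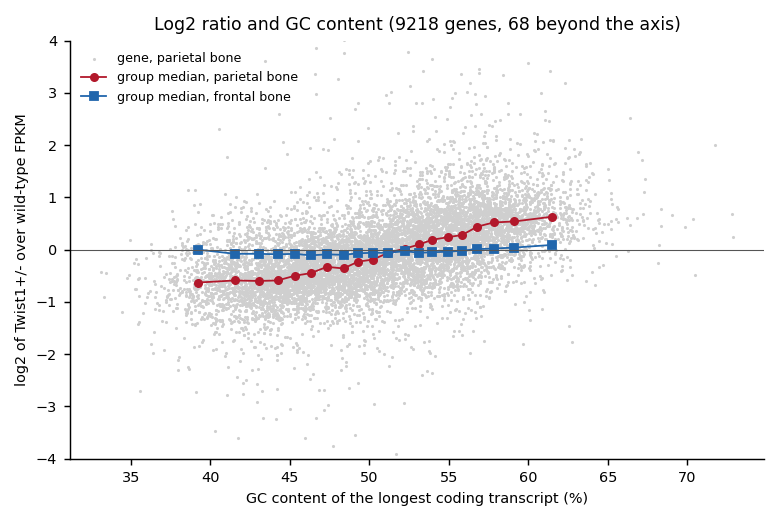
The x axis is the GC content of the longest coding transcript in percent and the y axis the log2 ratio of Twist1+/- over wild-type FPKM; grey points are kept genes in the parietal comparison (9218 genes, 68 of them beyond the axis), and the lines join the medians of 20 GC groups. The parietal medians climb from -0.63 to 0.63, while the frontal medians stay near 0.

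The bone-forming program did not move as a block. Of 24 kept osteoblast matrix and differentiation genes, 5 were higher and 2 lower past 2-fold, against 7.28% and 7.56% of all kept genes. The median log2 ratio of the 24 was 0.65. After GC subtraction 4 were higher and 1 lower, with a median of 0.35. Phospho1, a phosphatase that starts mineral formation in matrix vesicles, was at 63.3 FPKM in wild-type and 242 FPKM in the labelled library. Dlx3, a homeobox factor of osteoblast differentiation, was at 10.3 and 33.5 FPKM, and Smpd3, a sphingomyelinase needed for mineralization, at 30.7 and 82.8 FPKM. Their log2 ratios were 1.93, 1.71 and 1.43 (1.30, 1.27 and 0.89 after GC subtraction). All 3 genes were lower in wild-type parietal bone than in either frontal library. Of the 75-base windows of the longest Phospho1 transcript, 84.6% also occur in transcripts of other genes, most often Zfp652, so its reads are uncertain.

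Other osteoblast genes were lower. Periostin (Postn), a matrix protein of periosteum and connective tissue, was at 1044 FPKM in wild-type and 283 FPKM in the labelled library, a log2 ratio of -1.89. Mmp13, a collagenase of osteoblasts and hypertrophic chondrocytes, was at 1409 and 470 FPKM, giving a log2 ratio of -1.58. Osteopontin (Spp1), the most abundant kept gene of the list, was at 12239 and 6724 FPKM (log2 ratio -0.86). After GC subtraction the log2 ratios of Postn, Mmp13 and Spp1 were -1.30, -0.99 and -0.26, so that only Postn stayed past 2-fold. In all 3 genes the wild-type parietal value was the highest of the 4 libraries, the frontal values being 396 and 199 FPKM for Postn and 290 and 253 FPKM for Mmp13.

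Of 19 kept genes of osteocytes, the cells embedded in bone, 1 was higher and 5 were lower past 2-fold, with a median of -0.51. After GC subtraction 3 were higher and 3 lower, with a median of -0.09. Sclerostin (Sost), the osteocyte inhibitor of Wnt signalling, went the other way, with 18.3 FPKM in wild-type and 75.1 FPKM in the labelled library, and 26.7 and 45.5 FPKM in wild-type and Twist1+/- frontal bone. Its log2 ratio was 2.04 (1.60 after GC subtraction). Enpp1, which makes the mineralization inhibitor pyrophosphate, was at 92.2 and 23.7 FPKM (-1.96), Ackr3, a scavenging chemokine receptor, at 114 and 44.9 FPKM (-1.35), and Phex, an endopeptidase whose loss causes phosphate wasting, at 75.7 and 30.3 FPKM (-1.32). For Ackr3 both frontal values lay below the labelled library, whereas Phex was higher there, at 34.5 and 43.3 FPKM. After GC subtraction the log2 ratios were -1.46 for Enpp1 and -0.69 for Phex, and Ackr3 had no GC value.

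The list of 16 kept phosphate and mineralization regulators had 2 members higher and 2 lower past 2-fold, namely Phospho1 and Pth1r against Enpp1 and Phex, with a median of -0.44 (-0.36 after GC subtraction). Pth1r, the receptor for parathyroid hormone, was at 114 FPKM in wild-type and 250 FPKM in the labelled library. Its log2 ratio was 1.13 (0.59 after GC subtraction), and the frontal values were 112 and 119 FPKM. Osteoclast effector genes had no member higher and 3 lower past 2-fold among 20 kept (1 after GC subtraction), with a median of -0.24 (-0.34 after GC subtraction). These were the fusion gene Dcstamp (56.5 and 23.0 FPKM), the proton pump subunit Atp6v0d2 (159 and 65.9 FPKM) and Tnfrsf11a, the receptor RANK (12.5 and 6.02 FPKM). Cathepsin K (Ctsk), the main collagen-degrading enzyme of osteoclasts, was at 4782 and 2600.5 FPKM, within 2-fold.

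Among genes of the matrix itself, 20 collagen chains were kept, 5 higher and 2 lower past 2-fold, with a median of 0.59. After GC subtraction 3 were higher and 3 lower, with a median of 0.30. Col22a1, a chain found at tissue junctions, was at 24.1 and 79.2 FPKM and Col5a3 at 4.25 and 13.3 FPKM, with log2 ratios of 1.72 and 1.64. Col14a1, a fibril-associated chain of tendon and dermis, was at 15.2 and 3.84 FPKM, giving a log2 ratio of -1.99. Col3a1, the most abundant kept chain, was nearly level at 825 and 695 FPKM. The enzymes that modify collagen had a median of 0.18 over 29 kept genes (0.03 after GC subtraction). The 1 gene past 3-fold was Creb3l1, a transcription factor of the osteoblast secretory pathway, at 32.3 and 132 FPKM (2.03, and 1.49 after GC subtraction). Of 12 small leucine-rich proteoglycans, Prelp was higher (5.74 and 16.2 FPKM) and Aspn (271 and 119 FPKM) and Ogn (162 and 46.2 FPKM) lower past 2-fold, with a median of -0.31 (0.10 after GC subtraction). Among 19 matrix proteases and inhibitors the median was 0.03, and the extremes were Timp4 (2.35 and 7.63 FPKM) and Adamts12 (8.91 and 1.52 FPKM, log2 ratio -2.56).

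Genes of the Wnt pathway went both ways. Of 23 kept Wnt pathway genes, 6 were higher and 1 lower past 2-fold, around a median of 0.09 (-0.07 after GC subtraction). Sfrp2, a secreted frizzled-related protein (chromosome 3 of mm9, from 83570243 to 83578238) had 57.4 FPKM in wild-type and 399.8 FPKM in the labelled library, a log2 ratio of 2.80, with 63.1 and 42.8 FPKM in wild-type and Twist1+/- frontal bone. Notum, an enzyme that inactivates Wnt proteins, was at 2.44 and 14.7 FPKM (2.60). Sost is described above, and Wif1, a Wnt-binding inhibitor, was at 188 and 452 FPKM (1.27). The related Sfrp4 was lower, at 110 and 27.8 FPKM, giving a log2 ratio of -1.98. For Sfrp2 and Notum the labelled library stood above the other 3 libraries, and for Sfrp4 the wild-type parietal library did, its frontal values being 14.3 and 15.03 FPKM.

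In the BMP and TGF-beta pathway 6 of 33 kept genes were higher and 2 lower past 2-fold (median 0.26, and 0.30 after GC subtraction), but after GC subtraction only 2 were higher and 1 lower. The ligand Tgfb1 was at 28.8 and 97.4 FPKM (log2 ratio 1.76, and 1.13 after GC subtraction), the inhibitory Smad6 at 11.3 and 29.9 FPKM, and Ltbp4, which stores latent TGF-beta in matrix, at 9.45 and 25.8 FPKM, and the last 2 were within 2-fold after GC subtraction (0.78 and 0.82). The receptor Bmpr1a was at 38.9 and 13.6 FPKM (-1.51, and -0.92 after GC subtraction). Growth factors of the IGF system were lower: Igf1 was at 77.6 FPKM in wild-type and 18.6 FPKM in the labelled library (log2 ratio -2.06, and -1.43 after GC subtraction), and Igf2 at 1127 and 364 FPKM (-1.63, and -1.91 after GC subtraction). Igf2bp3, which binds Igf2 RNA, was at 5.52 and 1.81 FPKM. The binding protein Igfbp6 was higher (20.2 and 43.0 FPKM), and the median of the 13 kept IGF genes was -0.01 (-0.26 after GC subtraction).

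In the remaining signalling lists few genes passed 2-fold. Notch pathway genes had a median of 0.54 over 15 kept (0.28 after GC subtraction), with Notch1 higher (3.26 and 6.99 FPKM) and Dlk1, a growth-related ligand of the Notch family, lower (7.51 and 1.50 FPKM). FGF pathway genes had a median of -0.19 over 12 kept (-0.01 after GC subtraction), with Flrt2 lower (23.7 and 9.20 FPKM). Hedgehog genes had a median of 0.06 over 7 kept (-0.24 after GC subtraction) and no member past 2-fold. Ephrins and Eph receptors had a median of 0.55 over 9 kept (0.18 after GC subtraction), with Epha3 lower (8.23 and 2.199 FPKM).

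Of 10 kept Twist and bHLH partner genes, 2 were higher and 1 lower past 2-fold, where 7.28% and 7.56% of all kept genes were, with a median of 0.20. After GC subtraction 1 was higher and 0 lower, with a median of 0.32. Id4, an inhibitor of bHLH factors, was at 6.29 and 13.9 FPKM and the tendon factor Scx at 5.65 and 11.8 FPKM, while Id2, another such inhibitor, was at 197 and 93.7 FPKM. Tcf12, a dimer partner of Twist1, was at 42.2 and 21.2 FPKM. Among 17 cranial patterning factors, Dlx3, En1 (5.55 and 13.9 FPKM) and Sox9 (2.15 and 5.12 FPKM) were higher and Alx1 (6.33 and 1.64 FPKM) and Eya1 (7.88 and 3.57 FPKM) lower past 2-fold, around a median of 0.00 (0.17 after GC subtraction).

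With 5 FPKM required in the higher library alone, cartilage genes had the lowest median among the lists of bone and matrix. Of 14 kept, 3 were higher and 6 lower past 2-fold, with a median of -0.62 (-1.15 after GC subtraction). Of the 14, 6 passed the floor through the wild-type library alone, Lect1, Mia and Ucma among them, so that these 6 had to be lower. With 5 FPKM required in each library the cartilage median was -0.18, and that of osteocyte genes, at -0.51, was lower. Lect1 (chondromodulin), an inhibitor of vessel growth in cartilage, was at 15.4 FPKM in wild-type and 1.32 FPKM in the labelled library, and 0.611 and 0.971 FPKM in the frontal libraries. Mia, secreted by chondrocytes, was at 49.8 and 4.73 FPKM, with frontal values of 2.28 and 4.77 FPKM. Ucma, a matrix protein of cartilage, was at 5.22 and 0.347 FPKM. The log2 ratios were -3.55, -3.40 and -3.91, and in all 3 genes wild-type parietal bone stood apart from the other 3 libraries. Col11a2 went the other way, at 79.9 and 305 FPKM.

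Muscle genes were mostly lower. Of 27 kept skeletal muscle genes, 2 were higher and 12 lower past 2-fold, with a median of -0.68 (-0.93 after GC subtraction). Of the 27, 3 passed the floor through the wild-type library alone and so had to be lower, Myl2 among them. With 5 FPKM required in each library the median was -0.49. The summed level of the list was 4953 FPKM in wild-type parietal bone, 2501 FPKM in the labelled library, 201 FPKM in wild-type and 1850 FPKM in Twist1+/- frontal bone, and the part of attached muscle in any result was not tested. Myh8, the perinatal myosin heavy chain, was at 31.7 FPKM in wild-type and 6.02 FPKM in the labelled library. Myl2, the slow and cardiac light chain, was at 9.55 and 1.22 FPKM, and Actc1, the cardiac actin expressed in immature muscle, at 21.7 and 0.828 FPKM (log2 ratio -4.71). Myoglobin (Mb), of mature oxidative fibres, was at 87.2 and 261 FPKM, and the calcium pump Atp2a1 at 28.7 and 64.0 FPKM. Mylpf, the fast regulatory light chain, was lower, at 1295 and 357 FPKM.

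**Figure D3:**
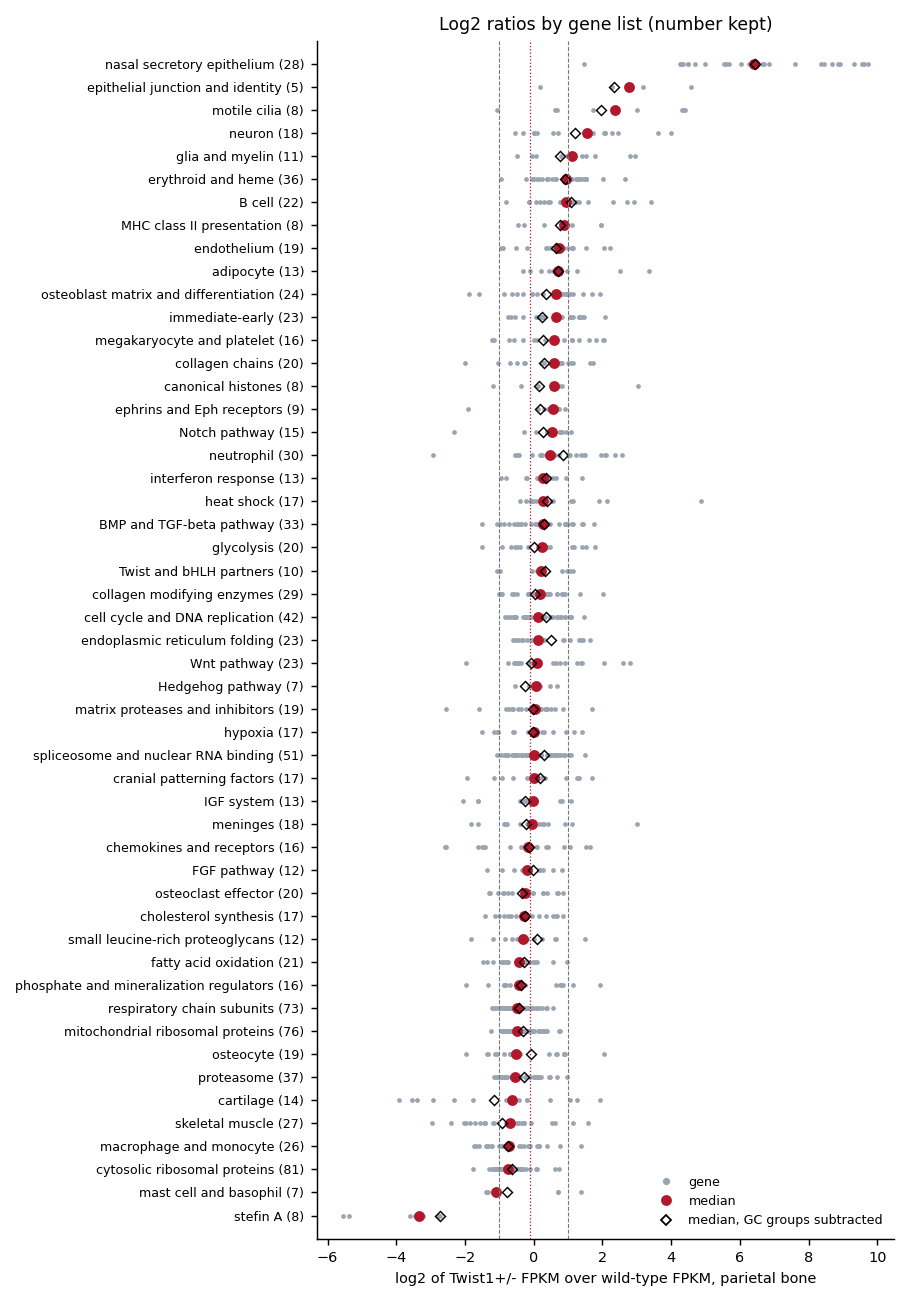
Rows are the gene lists with at least 5 kept genes (number kept in brackets), the x axis is the log2 ratio of the labelled library over wild-type parietal bone, grey points are genes, filled circles list medians and open diamonds medians after GC subtraction; dashed lines mark 2-fold and the dotted line the median of all kept genes (-0.09). Nasal secretory genes stand at the top with a median of 6.40 and stefin A genes at the bottom with -3.34.

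The marrow lists moved in different directions. Red cell genes were mostly higher, with 16 of 36 kept erythroid and heme genes higher and 0 lower past 2-fold, and a median of 0.94 (0.92 after GC subtraction). Klf1, the master regulator of adult globin genes, was at 7.64 FPKM in wild-type and 48.3 FPKM in the labelled library, against 74.1 and 42.3 FPKM in the frontal libraries. Gata1, the erythroid and megakaryocytic GATA factor, was at 6.10 and 24.6 FPKM, and the Rhesus antigen Rhd at 33.3 and 96.6 FPKM. The log2 ratios were 2.66, 2.01 and 1.54. Wild-type parietal bone was the lowest of the 4 libraries in 26 of the 36 genes, against 29.8% of all kept genes. The most abundant product differed little: Hbb-b1 (beta globin) was at 24924 and 27525 FPKM, with Alas2, the first enzyme of heme synthesis in red cells, at 395 and 338 FPKM. Hba-a1 (12297 and 17813 FPKM), Hbb-bt (5684 and 6764 FPKM) and Hbb-b1 have the value 0 in the wild-type frontal library, which may again be a failed estimate.

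Neutrophil genes were higher or level. Of 30 kept, 10 were higher and 1 lower past 2-fold, with a median of 0.48 (0.86 after GC subtraction). Mpo (myeloperoxidase) was at 21.2 FPKM in wild-type and 126 FPKM in the labelled library, and Elane (neutrophil elastase) at 27.8 and 144 FPKM, with log2 ratios of 2.57 and 2.37. Both are proteins of primary granules, which are filled at the promyelocyte stage, and Cebpe, a factor of granule maturation, was at 2.54 and 10.9 FPKM. S100a8, a cytosolic protein of mature neutrophils, was nearly level at 4373 and 4924 FPKM. The exception was Olfm4, a granule protein of a subset of neutrophils, at 24.2 and 3.20 FPKM (log2 ratio -2.92), against 10.8 and 13.8 FPKM in the frontal libraries.

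The stefin A genes, a tandem family of cysteine protease inhibitors expressed in myeloid cells, were all lower. Of 10 measured, 8 were kept, and all 8 were lower past 3-fold (1.74% of all kept genes were), with a median log2 ratio of -3.34 (-2.73 after GC subtraction). Those with an annotation lie on chromosome 16 of mm9 between 36156897 and 36455478. Stfa1 reached 704 FPKM in wild-type parietal bone, 63.6 FPKM in the labelled library, and 47.8 and 104 FPKM in wild-type and Twist1+/- frontal bone. Stfa3 was at 386, 31.5, 21.8 and 74.8 FPKM and Stfa2 at 399, 59.1, 30.3 and 146 FPKM in the same order. For these 3 genes the labelled library lay between the frontal libraries, whereas Gm5416 was below both (26.5 FPKM in wild-type parietal bone, 0.637 FPKM in the labelled library, and 1.28 and 1.03 FPKM in the frontal libraries). Wild-type parietal bone was the highest of the 4 for all 8 genes, against 42.4% of all kept genes. The RIKEN gene 2010005H15Rik had the lowest ratio of the family, at 81.7 and 1.74 FPKM (-5.55). The copies share sequence, and reads may have been divided among them. Of the 75-base windows of 2010005H15Rik, 27.5% also occur in other genes, most often Gm5483. The shares were 22.4% for BC100530 and 15.9% for Stfa1. The summed level of the 8 genes was 3036 FPKM in wild-type parietal bone, 345 FPKM in the labelled library, and 245 and 709 FPKM in the frontal libraries.

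The 250 bases before the annotated start are shown for 4 of these genes because they moved together, read 5′ to 3′ on the strand of the gene from the mm9 genome, with matches to CANNTG (the core bound by bHLH factors) and TTTAAA in capitals, both of which read the same on either strand. The windows are chr16:36252853-36253102 (+) for 2010005H15Rik, chr16:36276963-36277212 (+) for Stfa1, chr16:36421007-36421256 (-) for Stfa2 and chr16:36455479-36455728 (-) for Stfa3.
2010005H15Rik: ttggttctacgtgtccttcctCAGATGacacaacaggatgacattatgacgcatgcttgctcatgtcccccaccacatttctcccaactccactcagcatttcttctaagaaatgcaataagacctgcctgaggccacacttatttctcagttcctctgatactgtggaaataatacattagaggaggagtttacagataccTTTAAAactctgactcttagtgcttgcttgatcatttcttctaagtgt
Stfa1: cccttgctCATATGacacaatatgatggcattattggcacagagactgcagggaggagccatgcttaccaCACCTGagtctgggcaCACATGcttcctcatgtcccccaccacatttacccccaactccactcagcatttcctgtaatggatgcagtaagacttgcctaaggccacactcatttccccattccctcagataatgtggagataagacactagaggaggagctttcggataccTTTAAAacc
Stfa2: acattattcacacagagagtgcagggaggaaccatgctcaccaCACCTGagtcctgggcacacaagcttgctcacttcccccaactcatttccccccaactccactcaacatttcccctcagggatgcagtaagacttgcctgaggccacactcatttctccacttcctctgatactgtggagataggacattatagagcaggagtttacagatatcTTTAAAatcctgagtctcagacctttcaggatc
Stfa3: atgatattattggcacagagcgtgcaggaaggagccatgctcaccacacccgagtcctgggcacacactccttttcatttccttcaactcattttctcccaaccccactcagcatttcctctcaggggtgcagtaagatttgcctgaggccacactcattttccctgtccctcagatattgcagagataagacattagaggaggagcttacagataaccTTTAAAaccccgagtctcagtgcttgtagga
Aligned end to end, the windows of Stfa2 and Stfa3 had 80.7% identical positions, those of Stfa1 and Stfa3 70.9%, and those of 2010005H15Rik and Stfa1 60.9%. TTTAAA occurred in the windows of all 8 kept stefin A genes and in 11.7% of 22375 windows of protein-coding genes. CANNTG occurred in 7 of the 8 and in 63.5% of all windows. The copies are related by descent and do not count as independent, and a match is a description of letters and not a measure of binding.

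**Figure D4:**
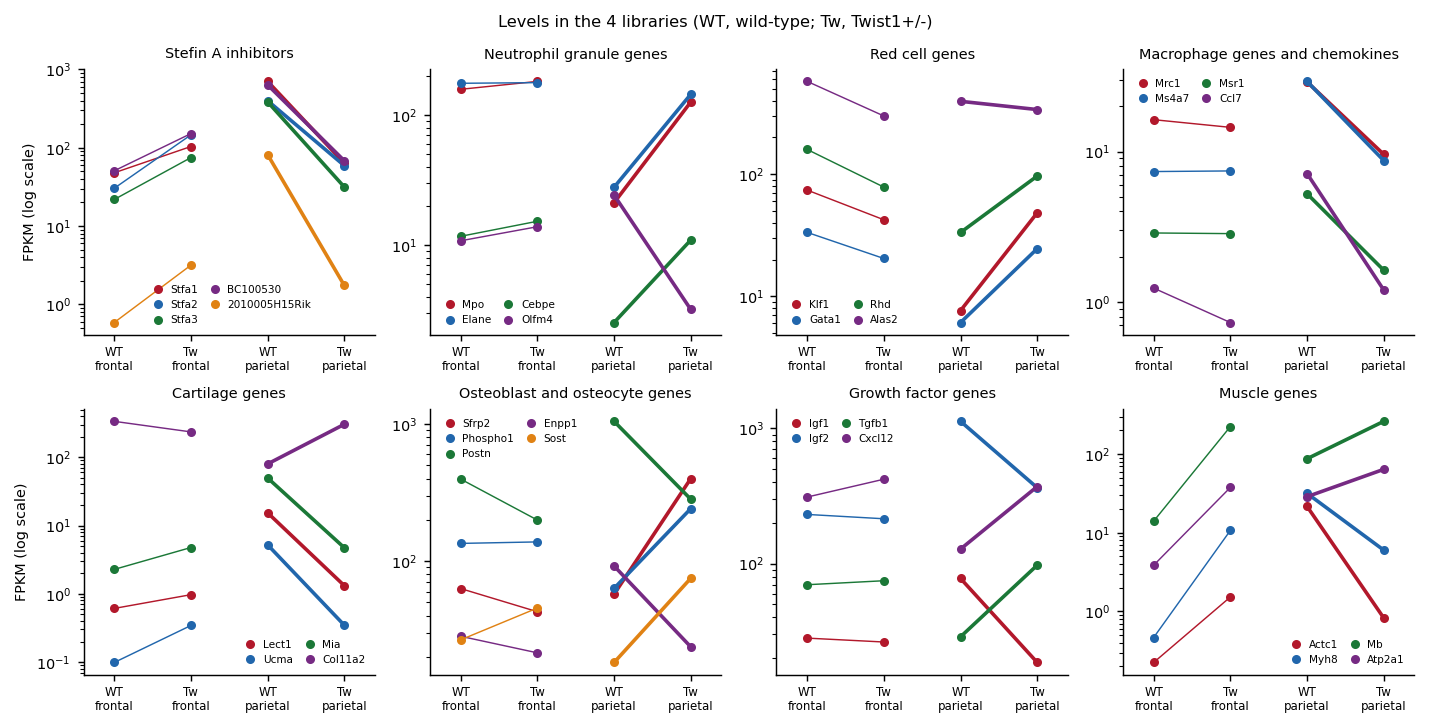
Each panel gives FPKM on a log y axis in the 4 libraries (WT, wild-type; Tw, Twist1+/- by label), with thin lines joining the frontal and thick lines the parietal libraries of a gene. The stefin A, macrophage and, apart from Col11a2, cartilage genes drop from wild-type parietal bone to the labelled library, Klf1 and Mpo climb, and the labelled library mostly lies near the frontal levels.

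Lymphoid and antigen-presenting genes were higher where they differed past 2-fold. Of 22 kept B cell genes 9 were higher and 0 lower past 2-fold, with a median of 0.94 (1.10 after GC subtraction). Of the 22, 8 passed through the labelled library alone, Pax5, Spib and Faim3 among them, so that these 8 had to be higher. With 5 FPKM required in each library the median was 0.62. Pax5, the factor that fixes B cell identity, was at 2.23 FPKM in wild-type and 16.7 FPKM in the labelled library, against 13.98 and 11.5 FPKM in the frontal libraries. Spib was at 3.70 and 24.5 FPKM and Faim3, the receptor for IgM, at 0.490 and 5.22 FPKM. Igll1, the surrogate light chain of early B cells, was at 44.0 and 24.9 FPKM, within 2-fold. In MHC class II presentation 3 of 8 kept genes were higher and 0 lower past 2-fold (median 0.88), among them the invariant chain Cd74 (45.8 and 179 FPKM) and H2-Ab1 (21.5 and 84.4 FPKM). Only 3 T and NK cell genes were kept, with a median of 0.56, and Nkg7 was the 1 past 2-fold (6.09 and 16.4 FPKM).

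Macrophage genes were mostly lower. Of 26 kept macrophage and monocyte genes 1 was higher and 9 lower past 2-fold, with a median of -0.71 (-0.74 after GC subtraction). Of the 26, 3 passed the floor through the wild-type library alone, Msr1 among them, and 1 through the labelled library alone. Ms4a7, a tissue macrophage membrane protein, was at 29.3 FPKM in wild-type and 8.72 FPKM in the labelled library, the mannose receptor Mrc1 at 29.1 and 9.58 FPKM, and the scavenger receptor Msr1 at 5.25 and 1.63 FPKM. Their log2 ratios were -1.75, -1.60 and -1.69, and all 3 were within 3-fold after GC subtraction. Apoe, the most abundant member, was at 498 and 652 FPKM, and Gpnmb, of lipid-laden macrophages and osteoclasts, at 3.09 and 8.01 FPKM. The summed level of the list was 1816 FPKM in wild-type and 1701 FPKM in the labelled library.

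Chemokine genes went both ways. Of 16 kept chemokine and receptor genes 3 were higher and 6 lower past 2-fold (3 and 4 after GC subtraction), around a median of -0.16. Of the 16, 3 passed the floor through the wild-type library alone, Ccl7 and Ccl12 among them. A further 2 passed through the labelled library alone, Cx3cl1 among them. Ccl7 was at 7.15 and 1.20 FPKM, Ccl12 at 19.5 and 3.31 FPKM and Ccl9 at 62.7 and 20.2 FPKM, and their log2 ratios were -2.57, -2.56 and -1.63. Cxcl12, which holds blood stem cells in the marrow, was at 128 FPKM in wild-type and 371 FPKM in the labelled library, with 311 and 421 FPKM in the frontal libraries, and its receptor Cxcr4 was at 27.2 and 56.4 FPKM. Cx3cl1 was at 2.34 and 7.27 FPKM.

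Megakaryocyte genes went both ways. Of 16 kept, 7 were higher and 2 lower past 2-fold (median 0.60, and 0.26 after GC subtraction). After GC subtraction 5 were higher and 1 lower. Of the 16, 6 passed the floor through the labelled library alone, Gp5 and Itga2b among them, and 1 through the wild-type library alone. The direction of these was set by the floor. The surface receptors Gp5 (1.57 and 6.43 FPKM) and Itga2b (3.62 and 12.7 FPKM) were higher, and Pf4, a chemokine of platelet granules, was lower (274 and 118 FPKM). Of 7 kept mast cell and basophil genes 4 were lower, all of them mast cell granule genes: the proteases Cpa3 (23.9 and 9.19 FPKM), Mcpt4 (27.7 and 10.7 FPKM), Cma1 (30.6 and 12.2 FPKM) and Tpsb2 (39.1 and 18.3 FPKM). The basophil protease Prss34 was higher, at 5.95 and 15.5 FPKM, and the median of the list was -1.10 (-0.79 after GC subtraction). Both frontal libraries held less of the 4 mast cell genes than the labelled library.

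Genes of protein synthesis and energy metabolism were lower by small amounts in most members. Of 81 kept cytosolic ribosomal protein genes 77 had a log2 ratio below 0, but 12 were lower and 0 higher past 2-fold, with a median of -0.74 (-0.63 after GC subtraction, and -0.42 after subtracting also the trend with transcript length, added after seeing the data). Wild-type parietal bone was the highest of the 4 libraries in the same number, 77 of the 81, against 42.4% of all kept genes. Rpl39l, a paralog of Rpl39 used in germ and dividing cells, had the lowest ratio, at 83.9 and 24.7 FPKM, followed by Rps25 (942 and 380 FPKM) and Rpl15 (189 and 81.8 FPKM). Rplp1, the most abundant, was at 7658 and 6093 FPKM, and Rplp2 lay on the other side of 0, at 1937 and 2970 FPKM. Many of these genes have processed copies elsewhere in the genome, and 35.2% of the 75-base windows of Rplp1 and 30.2% of those of Rpl15 occur in another gene.

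Mitochondrial ribosomal proteins had a median of -0.48 over 76 kept genes (-0.31 after GC subtraction), with 0 higher and 1 lower past 2-fold, the latter Mrps14 (44.6 and 18.9 FPKM). Respiratory chain subunits also had a median of -0.48 over 73 kept genes (-0.43 after GC subtraction), and 66 of the 73 were below 0. Those with the lowest ratios were subunits of the ATP synthase, Atp5c1 (408 and 177 FPKM) and Atp5o (538 and 253 FPKM), and of complex III, Uqcrc2 (181 and 81.3 FPKM). Proteasome genes had a median of -0.54 over 37 kept (-0.27 after GC subtraction), with 4 lower past 2-fold and 0 after GC subtraction, Psmd6 being the lowest (93.1 and 42.1 FPKM), and the inducible subunit Psmb9 on the other side (11.01 and 21.6 FPKM). Fatty acid oxidation had a median of -0.43 over 21 kept, with the isomerase Eci2 (82.6 and 29.9 FPKM) among those lower past 2-fold. The shortest of 20 groups of genes by transcript length, up to 874 bases, had a median log2 ratio of -0.35. After both trends were subtracted, the medians were -0.16 for the mitochondrial ribosome, -0.22 for the respiratory chain and -0.16 for the proteasome.

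Glycolysis had a median of 0.23 over 20 kept genes (0.02 after GC subtraction), with 5 higher and 1 lower past 2-fold. Aldoc (13.3 and 45.8 FPKM) and Eno2 (3.47 and 9.998 FPKM), the brain forms of aldolase and enolase, and the glucose transporter Slc2a1 (8.08 and 21.2 FPKM) were higher. Pdk1, which turns pyruvate away from mitochondria, was lower (22.2 and 7.77 FPKM). Hypoxia genes had a median of 0.02 over 17 kept, with Bnip3 (34.7 and 16.4 FPKM) and Ankrd37 (8.01 and 3.57 FPKM) among 5 lower and 2 higher (2 and 2 after GC subtraction). Cholesterol synthesis had a median of -0.29 over 17 kept, 3 lower past 2-fold (0 after GC subtraction), among them Stard4 (6.07 and 2.28 FPKM).

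Stress and growth-response genes that differed past 2-fold were all higher. Of 23 kept immediate-early genes 9 were higher and 0 lower past 2-fold, with a median of 0.64, and after GC subtraction 5 were higher, with a median of 0.23. Klf2, a flow-responsive factor of endothelium, was at 25.1 and 105 FPKM, Nr4a1 at 4.86 and 13.4 FPKM and Klf4 at 21.8 and 57.5 FPKM, while Fos itself was at 18.6 and 12.7 FPKM. Heat shock genes had a median of 0.27 over 17 kept, 5 of them higher and 0 lower past 2-fold. Of the 17, 3 passed the floor through the labelled library alone, Hspa1b and Hsph1 among them, so that these 3 had to be higher. Hspa1b, an inducible Hsp70, was at 0.189 and 5.51 FPKM, and Hsph1 at 4.88 and 18.4 FPKM. Of the windows of Hspa1b, 55.6% were shared with other genes, most often Hspa1a. In the endoplasmic reticulum 5 of 23 folding genes were higher past 2-fold and 3 after GC subtraction (median 0.13, and 0.49 after GC subtraction), led by the chaperone Hyou1 (7.39 and 22.8 FPKM) and Sdf2l1 (12.1 and 33.1 FPKM). In frontal bone these 4 genes went the other way, Hsph1 for example being at 32.5 FPKM in wild-type and 19.5 FPKM in Twist1+/- frontal bone.

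Proliferation and RNA processing differed little. Of 42 kept cell cycle and DNA replication genes 5 were higher (3 after GC subtraction) and 0 lower past 2-fold, with a median of 0.14 (0.35 after GC subtraction), among them the mitotic kinase Plk1 (5.79 and 15.9 FPKM), the replication helicase subunit Mcm2 (12.3 and 26.3 FPKM) and Uhrf1 (8.94 and 18.9 FPKM). Spliceosome genes had a median of 0.01 over 51 kept, with Sf3a2 (11.2 and 31.1 FPKM) and Srsf5 (154 and 72.8 FPKM) at its ends. Canonical histone genes, which mostly lack a poly(A) tail, had 8 kept members and a median of 0.58 (0.15 after GC subtraction). Interferon response genes had a median of 0.28 over 13 kept, with Irf7 alone past 2-fold (3.98 and 10.5 FPKM).

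Vessel and fat genes past 2-fold were all higher. Endothelial genes had 6 higher and 0 lower past 2-fold among 19 kept, with a median of 0.75 (0.64 after GC subtraction). Plvap, of fenestrated vessels and sinusoids, was at 22.5 FPKM in wild-type and 104 FPKM in the labelled library, and Sox18 at 15.5 and 64.5 FPKM, while Erg (16.8 and 9.09 FPKM) and Ecscr (19.9 and 10.2 FPKM) lay lower within 2-fold. Adipocyte genes had a median of 0.70 over 13 kept. Of these, 7 passed through the labelled library alone and so had to be higher, adiponectin and adipsin among them. With 5 FPKM required in each library the median was 0.34. Adiponectin (Adipoq) was at 2.63 and 14.98 FPKM and adipsin (Cfd) at 0.713 and 7.25 FPKM, whereas Fabp4, also a gene of endothelium, was level at 389 and 363 FPKM.

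The highest ratios belonged to genes of nasal mucosa and of tooth enamel. All 28 kept genes of nasal secretory epithelium were higher past 2-fold, with a median log2 ratio of 6.40 (6.43 after GC subtraction), but 25 of the 28 passed the floor through the labelled library alone and so had to differ. Their summed level was 99.6 FPKM in wild-type parietal bone, 4533 FPKM in the labelled library, 1026 FPKM in wild-type and 4314 FPKM in Twist1+/- frontal bone. The list holds odorant-binding proteins and lipocalins that carry small hydrophobic molecules in nasal mucus. Its members were chosen with earlier results of these data known. Scgb1c1, a secretoglobin of olfactory mucosa, was at 6.35 FPKM in wild-type and 727 FPKM in the labelled library, with 44.5 and 210 FPKM in the frontal libraries. Mup5 was at 0.217 and 185 FPKM and Dmbt1, a mucin-like glycoprotein, at 0.00670 and 5.01 FPKM. Wild-type parietal bone was the lowest of the 4 libraries in 27 of the 28 genes, against 29.8% of all kept genes. Near-identical copies again share reads, 69.3% of the windows of Gm14743 and 61.6% of those of Bpifb9a being found in another gene.

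Other epithelial lists had few kept members, and many of these passed the floor through the labelled library alone, so that their direction was partly set by the floor. Epithelial junction and identity genes had 4 of 5 higher past 2-fold (median 2.78, and 1.48 with 5 FPKM required in each library, 3 of the 5 having passed through the labelled library alone), among them the tight junction gene Cldn3 (0.312 and 7.52 FPKM) and the protease inhibitor Spint2 (6.96 and 47.8 FPKM). Motile cilia genes had 5 higher and 1 lower among 8 kept, such as Dynlrb2 (0.439 and 8.79 FPKM), but 5 of the 8 passed through the labelled library alone, and the median of 2.37 became 0.63 with 5 FPKM required in each library. Keratinocyte genes had 3 higher among 4 kept, 2 of them through the labelled library alone, such as Krtdap (0.157 and 11.4 FPKM), with a median of 2.38 (1.30 with 5 FPKM in each). Most members of these lists were not kept. Of 4 kept dentin and enamel genes, 2 were enamel matrix genes and both were higher. Amelx (amelogenin, chromosome X of mm9, from 165614046 to 165625132) had 0.0760 FPKM in wild-type and 101 FPKM in the labelled library, a log2 ratio of 10.38, with 10.8 and 39.6 FPKM in the frontal libraries, and Ambn was at 4.50 and 17.3 FPKM. The part of tissue from the nose or the teeth in any result was not tested.

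Neural genes were higher too. Of 18 kept neuron genes 11 were higher and 0 lower past 2-fold, with a median of 1.54 (1.20 after GC subtraction), but 8 of the 18 passed through the labelled library alone, and the median was 0.33 with 5 FPKM required in each library. Snap25, a synaptic fusion protein, was at 1.53 and 18.6 FPKM, with 50.1 FPKM in wild-type frontal bone. Gad1, which makes the transmitter GABA, was at 0.383 and 6.16 FPKM, with 31.7 FPKM in wild-type frontal bone. Glia and myelin genes had 6 higher and 0 lower among 11 kept (median 1.11, and 0.77 after GC subtraction), led by myelin basic protein, Mbp (34.8 and 270.0 FPKM). Meningeal genes as a list did not move (18 kept, median -0.05), but Ptgds, a prostaglandin synthase abundant in meninges, reached 52.8 FPKM in wild-type parietal bone, 428 FPKM in the labelled library and 1975 FPKM in wild-type frontal bone. The part of brain or meninges in any result was not tested.

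Some further groups were drawn up after their values were seen, and are given as description only. The lists above were also chosen with earlier results of these data known. Of 12 kept genes of olfactory sensory neurons 10 were higher past 2-fold, and 10 of the 12 passed the floor through the labelled library alone. Omp, the olfactory marker protein, was at 1.86 FPKM in wild-type, 58.8 FPKM in the labelled library, and 34.5 and 116 FPKM in the frontal libraries, and Gng13, a G protein subunit of these neurons, was at 1.39, 77.3, 43.3 and 106 FPKM. No odorant receptor gene was kept, yet 56 of 1117 were above 0 in wild-type parietal bone and 334 in the labelled library, against 312 and 876 in the frontal libraries.

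Of 19 kept imprinted genes, which are expressed from 1 parental copy and of which many promote fetal growth, 0 were higher and 10 lower past 2-fold, with a median of -1.11 (-0.84 after GC subtraction). Of the 19, 3 passed the floor through the wild-type library alone, Peg3 among them, and 1 through the labelled library alone. H19, a maternally expressed long RNA, was at 2278 FPKM in wild-type, 388 FPKM in the labelled library and 177 and 166 FPKM in the frontal libraries. Its neighbour Igf2 is given above, Mest was at 102 and 12.9 FPKM, Peg3 at 22.0 and 3.41 FPKM, Rian at 41.7 and 7.40 FPKM and the growth inhibitor Cdkn1c at 155 and 44.2 FPKM. Meg3, from the same cluster as Rian, was level at 47.5 and 48.2 FPKM, and Snrpn was at 3.17 and 5.98 FPKM. Wild-type parietal bone was the highest of the 4 libraries in 15 of the 19, against 42.4% of all kept genes.

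Among 16 kept genes of tendon and fibrous tissue 3 were higher and 5 lower past 2-fold (median 0.08). Tenomodulin (Tnmd) was at 142 and 29.2 FPKM, Itm2a at 549.8 and 102 FPKM and Mfap4 at 377 and 73.6 FPKM, while Pi16 was at 4.58 and 19.7 FPKM. Of 5 kept eosinophil genes 3 were lower past 2-fold, such as Prg2 (major basic protein), at 112 and 52.1 FPKM against 154 and 51.2 FPKM in wild-type and Twist1+/- frontal bone, so that here both labelled Twist1+/- libraries were lower. Of the 5, 3 passed the floor through the wild-type library alone and so had to be lower in the parietal comparison. Xist, the RNA of the inactive X chromosome, reached 39.2 FPKM in wild-type parietal bone, 5.04 FPKM in the labelled library and 51.7 and 26.5 FPKM in the frontal libraries, and the Y-linked Eif2s3y at 21.3, 15.6, 5.44 and 14.5 FPKM. Both genes were thus detected in all 4 libraries.

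Some of the 20 lowest ratios among genes at or above 10 FPKM belonged to genes whose symbol matched no list. A list member under another symbol in the data would not have matched. For cartilage, 24 of the 27 listed symbols were found. Gpha2, a glycoprotein hormone subunit (chromosome 19 of mm9, from 6226380 to 6227768), reached 204 FPKM in wild-type parietal bone against 2.01 to 3.01 FPKM in the other 3 libraries, 3110079O15Rik at 34.4 and 0.354 FPKM, Tceal7 at 65.8 and 3.09 FPKM, and Capn6, a calpain without protease activity, at 69.2 and 8.21 FPKM. Nutf2-ps1 had the lowest ratio, at 10.05 and 0.00358 FPKM, but 99.0% of its 75-base windows occur in other genes, most often Nutf2. The value may therefore follow the assignment of reads. Of the 20 highest ratios in genes of that level, 16 belonged to the nasal, enamel and keratinocyte lists, which were chosen with earlier results known. The others were the chitinase-like genes Chil4 and Chil6 and the RIKEN genes 5430402E10Rik and 5430401F13Rik.

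The frontal comparison shares no library with the parietal one. Of the 249 genes past 3-fold higher in the labelled parietal library, 62 were past 3-fold higher and 3 past 3-fold lower in Twist1+/- against wild-type frontal bone, where 1.30% and 0.0912% of 9870 kept genes with a frontal ratio were. Of the 172 genes past 3-fold lower, 17 were past 3-fold higher and 2 past 3-fold lower in frontal bone. The median frontal log2 ratio was 0.20 for the higher genes and -0.01 for the lower genes.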

How the data were processed

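Poly(A) RNA of 2 skull bones (frontal, parietal) and 2 genotypes (wild-type, Twist1+/-) was sequenced in 4 libraries, 1 per condition. The authors aligned reads to mm9 with STAR 2.4.2a and computed the deposited FPKM values with Cuffdiff of Cufflinks 2.2.1 (R 3.2.2 is also named in the submitters' processing notes); the scaling option is not given in the sources used here. The methods speak of replicates, but 1 FPKM value per condition was analysed. FPKM keep no library depth, so no interval or count model was used. 

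From the FPKM the log2 ratio of the library labelled Twist1+/- over wild-type parietal bone was computed with Python 3.11.15, pandas 2.3.3, NumPy 2.4.6 and SciPy 1.17.1, with no pseudocount, for genes that were not 0 in either library and whose larger value reached 5 FPKM. GC content and length came from the longest coding transcript in the GENCODE annotation of mm9, which is not the annotation the authors used, and each was divided into 20 groups. Genes with no match kept their ratio unchanged. Calculations were tested on simulated data. Genes were described in 54 lists, plus 5 lists drawn up after values were seen. Named genes were up to 3 higher and 3 lower members of each list and its most abundant member, the 20 highest and 20 lowest ratios among genes at or above 10 FPKM, and Twist1, with collagen and globin genes at 0 in a library as exceptions. The members and lists were chosen with earlier results of these data known. Alternatives were other floors, pseudocounts of 1 and 0.1 FPKM, scaling the median ratio to 1, keeping short RNA genes, counting genes at 0, and subtraction of the GC trend. Subtraction of GC and length together and a floor in each library were added after seeing the data.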

Additional observations from a re-analysis of the deposited data

Results flagged for a closer look

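Some results had opposite directions in the 2 bones, past 2-fold for a list and past 3-fold for a gene in both. Each rests on 1 library per condition, and the difference between the bones was not tested. The median log2 ratio of the stefin A genes was -3.34 in parietal bone and 1.50 in frontal bone. Within the family, 2010005H15Rik was at -5.55 in parietal and 2.43 in frontal bone, Stfa2 at -2.76 and 2.27, and Stfa3 at -3.61 and 1.78. Among muscle genes, Actc1 was at -4.71 in parietal and 2.76 in frontal bone, Myh8 at -2.40 and 4.52, Mylpf at -1.86 and 3.82, and Tnnt1, the slow troponin T, at -2.03 and 1.86. The cartilage gene Ucma was at -3.91 in parietal and 1.80 in frontal bone, and Tceal7 at -4.41 and 3.16. Among the genes of the lists and of the highest and lowest ratios, Ptgds was higher in parietal (3.02) and lower in frontal bone (-2.60).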

How the results depend on the processing

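No paired analysis was possible because each condition had 1 library and no replicate number, and for the same reason no library could be left out. No list median past 2-fold and no gene past 3-fold changed its sign under the alternatives run. Of the smaller values, 11 of 54 list medians and 39 of 387 gene ratios changed sign under at least 1 alternative, such as small leucine-rich proteoglycans (-0.31, and 0.10 after GC subtraction) and dentin and enamel (0.54, and -0.87 with 5 FPKM in each library). The 249 genes more than 3-fold higher became 663 with a floor of 1 FPKM and 159 with a floor of 10 FPKM. The 172 genes more than 3-fold lower became 349 and 100 under those floors, 112 with a pseudocount of 1 FPKM, and 107 after GC and length were subtracted together, an alternative chosen after seeing the data. With GC alone subtracted the counts were 195 and 115, and with the median ratio scaled to 1 they were 298 and 147. Of the 54 list medians, 4 crossed 2-fold after GC subtraction, 5 after GC and length, 4 with the floor of 10 FPKM and 2 with the scaling. Cartilage passed 2-fold lower after GC subtraction (-1.15), mast cell genes no longer did (-0.79), and the neuron median was within 2-fold when 5 FPKM was required in each library (0.33). Of 387 single-gene ratios, 35 crossed 3-fold after GC subtraction. The cause of these shifts was not tested. FPKM do not show depth, so the counting error of low genes is unknown.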
